A study of Mus musculus with 346 samples.

Results

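Single mammary cells of pre-pubertal and adult mice were compared at matched sequencing depth. A cell was included when 200000 to 600000 of its reads fell on the analysed genes and at least 1500 of these genes were detected. Of 144 pre-pubertal cells 92 were kept (63.9%, 95% exact binomial interval 55.5 to 71.7), and of 66 adult cells 25 (37.9%, 26.2 to 50.7), which made 117 of the 346 cells in the series. All cells came from the mammary glands of female FVB/NJ mice, an inbred laboratory strain, and the labels name no transgene and no treatment. The labels give the pre-pubertal cells an age of 2 weeks and the adult cells an age of 10 weeks, and name the source of both as total epithelium. Single-cell suspensions were stained for CD24 and CD29 and for markers of blood and endothelial cells. Sorted cells were then caught on Fluidigm C1 chips, where each cell is lysed in its own chamber and its polyadenylated RNA is turned into full-length cDNA. The glands of several mice were pooled for each sort, and no label names the mouse, the sort or the chip of a cell. Each stage is therefore 1 sample. No statistical test was made, the spread given below is the spread between cells and not between mice, and all intervals cover counting error only. Differences between stages cannot be told apart from differences between sorts and chips.

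The adult mammary gland is a branched tree of ducts whose epithelium has an outer basal layer of contractile, myoepithelial cells and an inner luminal layer. Luminal cells carry the receptors for ovarian and pituitary hormones or make milk. Before puberty the tree is rudimentary, and it lies in a pad of fat and connective tissue that also holds vessels and nerves. Schwann cells are the glia of peripheral nerves. They wrap axons, some of them with myelin, and they come from the neural crest.

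Most cells that fell outside the window were shallow. At pre-puberty 43 cells were below 200000 reads and 9 were above 600000, and in the adult 28 were below, 12 were above and 1 had too few genes. The 9 pre-pubertal cells above 600000 reads were all numbered 1 to 37 in the labels. Of the 92 kept pre-pubertal cells 3 had such numbers and 89 were numbered 38 and above. The labels give these numbers no meaning beyond naming the cell. The kept pre-pubertal cells had a median of 298074 reads (201836 to 570773) and the kept adult cells 324099 (215391 to 517797). Together they gave 28996126 and 8438561 reads, and levels below are counts scaled to a total of 1000000 (CPM). After every cell was thinned at random to 200000 reads, the median pre-pubertal cell still had 3251.5 detected genes and the median adult cell 2599, and the ranges of 1537 to 5103 and 1568 to 4070 overlapped. Mitochondrial genes, which were removed beforehand, took a median of 3.37% of all reads at pre-puberty (1.30% to 14.8%) and 9.97% in the adult (1.86% to 39.9%). Adult cells 26, 27, 37, 44 and 45 had 28.9% to 39.9%, and cells 37 and 44 hold most adult reads of some genes named below. The part of mitochondrial reads in the results was not tested. The cells next to the limits give the scale of single values. Pre-pubertal cell 136, left out at 198743 reads, had 654 CPM of Kcna1, a leading pre-pubertal gene, and cell 101, kept at 201836 reads, had 4261 CPM. Among adult cells, cell 32 was left out at 617480 reads with 1032 CPM of Epcam, and cell 27 was kept at 517797 reads with 46.4 CPM.

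**Figure D1:**
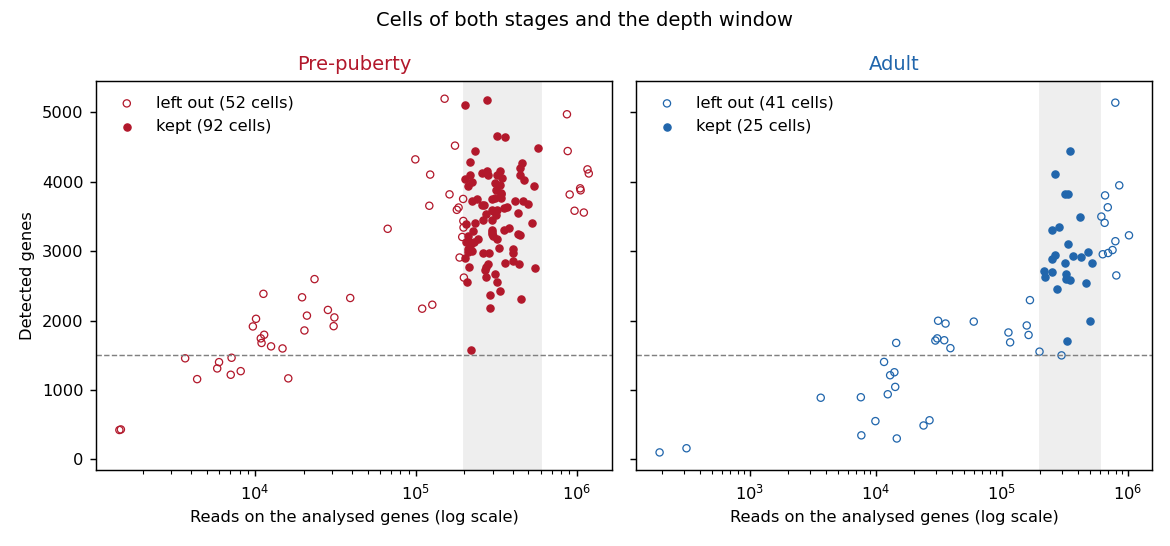
Detected genes (y axis) against reads on the analysed genes (x axis, log scale) for each pre-pubertal cell (left) and adult cell (right). The grey band spans 200000 to 600000 reads and the dashed line marks 1500 genes. Filled points are the 92 and 25 kept cells, and open points the 52 and 41 cells left out.

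The source label was first set against markers of the lineages. The adult cells carried epithelial markers, and most pre-pubertal cells carried few or none of them. At 200000 reads per cell, 46 of 92 pre-pubertal cells detected none of 14 pan-epithelial markers (50%, 39.4 to 60.6). No adult cell lacked them all (0 of 25 cells, 0 to 13.7%). At least 5 of these markers were found in 7 pre-pubertal cells (7.61%, 3.11 to 15.1) and in 23 adult cells (92%, 74.0 to 99.0). The Schwann list showed the opposite pattern. At least 12 of its 24 genes were detected in 92 of 92 pre-pubertal cells (100%, 96.1 to 100) and in 0 of 25 adult cells. The number of Schwann list genes per cell was 12 to 22 at pre-puberty, with a median of 18, and 0 to 5 in the adult, with a median of 4, so that the stages did not overlap. Among 62 pubertal cells in the same window, labelled as 4.7 to 4.9 weeks old, 2 reached 12 Schwann genes. Of the same 62 cells, 60 reached 5 pan-epithelial markers. The source label and these marker counts thus differ for most of the pre-pubertal cells, which are called by their stage alone here. The Schwann list was chosen with earlier results of these data known, and its members Kcna1, Gatm and Mal are leading genes below. Its gap between the stages was therefore partly set in advance. The paper took the sorted cells as epithelium and reports Krt14 and Krt8/18 protein in ducts at 2 weeks. By western blots of single cells it also reports strong staining for both in a minority of pre-pubertal cells. It further shows flow cytometry for CD24, CD29 and CD55 at this age. RNA counts do not measure these proteins. Adult cell 5 was the only adult cell with more Schwann list genes than pan-epithelial markers, with 4 against 2, and it also detected 9 of 10 endothelial and 5 of 7 pericyte markers.

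**Figure D2:**
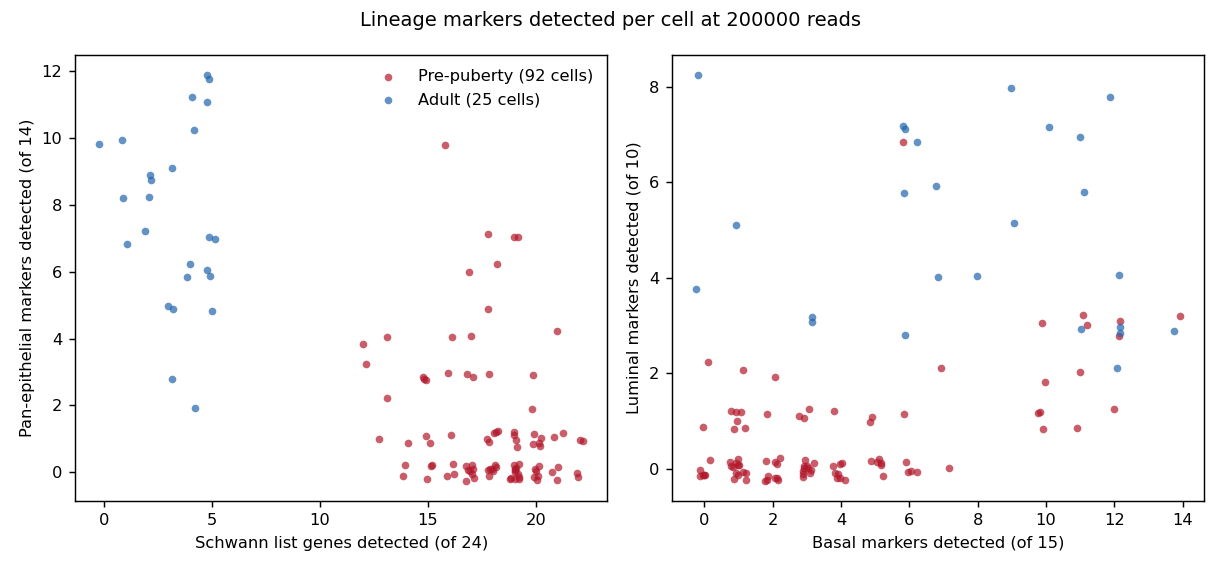
Number of markers detected in each cell after thinning to 200000 reads, with a small random shift so that points do not hide each other. Left, 14 pan-epithelial markers against 24 Schwann list genes: no adult cell is above 5 Schwann list genes and no pre-pubertal cell is below 12. Right, 10 luminal against 15 basal markers: 13 pre-pubertal cells with 10 to 14 basal markers stand apart from the other 79 with 0 to 7.

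Among the pre-pubertal cells, 13 of 92 detected 8 or more of 15 basal markers (14.1%, 7.74 to 23.0). These cells had 10 to 14 basal markers and the other 79 cells had 0 to 7, with no cell between. They held 79.1% of the stage's reads on the basal list and 95.7% of those on Krt14, the keratin of basal cells. Of Oxtr, the oxytocin receptor, they held 86.7%, and of Acta2, smooth muscle actin, 80.4%. Of Krt5, Myh11, Krt17 and Trp63 they held 68.6%, 67.8%, 58.8% and 52.7%. All these genes are among the 15 markers that picked the cells. The shares, and the level of the basal list, thus follow in part from that choice. Their basal list stood at 8331 CPM against 348 CPM in the other 79 cells and 11038 CPM in the adult. The same 13 cells also carried 12 to 21 Schwann list genes, with a median of 18 as in the other cells. Their Schwann list stood at 19660 CPM (5061 to 36452 in single cells) against 28306 CPM (4640 to 88357), and their Sox10 at 54.0 against 338 CPM. They detected a median of 3752 genes at 200000 reads and the others 3114. No doublet caller was run, and the part that shared chambers had in these cells was not tested.

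Several luminal genes at pre-puberty were held mostly by a single cell. Pre-pubertal cell 110 detected 10 pan-epithelial, 7 luminal and 16 Schwann list genes, and it was the only pre-pubertal cell with 4 or more of 10 luminal markers (1.09%, 0.0275 to 5.91), against 17 of 25 adult cells (68%, 46.5 to 85.1). It held 94.1% of the pre-pubertal reads of Krt18, 98.0% of those of Krt19 and 99.5% of those of Prlr, but 52.3% of those of Krt8. Without it these genes had 5.76, 0.314, 0.209 and 20.5 CPM at pre-puberty. In the adult, 13 of 25 cells had 8 or more basal markers (52%, 31.3 to 72.2), and 8 of these also had 4 or more luminal markers. A marker counted as detected from a single read, and the median adult cell had 193 CPM on the basal list. The part that shared chambers had in these 8 cells was not tested.

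The comparison of all genes asked which transcripts set the stages apart when depth is alike. Reads were added up over the kept cells of each stage, and log2 ratios were taken after adding 5 CPM to both stages, which understates the change of low genes. Of 9577 genes at 10 CPM or more at either stage, 1935 (20.2%) were at least 4-fold higher at pre-puberty and 1243 (13%) at least 4-fold higher in the adult, and 6399 were between. The median log2 ratio of all 9577 genes was 0.26, and the ratios below are to be read against it. Ratios without the top cells are to be read against a median of 0.88 instead, with 2228 genes then higher at pre-puberty. The cell left out was 1 of 92 at pre-puberty but 1 of 25 in the adult. Single cells had a large part in these numbers, above all in the adult. When the cell with the most reads of a gene was left out at each stage, 1410 of the genes higher at pre-puberty (14.7% of those tested) and 422 of those higher in the adult (4.41%) were still past 4-fold. The 821 adult calls lost in this way were spread over all 25 adult cells, with at most 76 in 1 of them, adult cell 51. Asking in addition for 100 CPM or more, and for detection in 50% or more of the higher stage's thinned cells, left 362 genes for pre-puberty and 118 for the adult. Where 2 levels are joined by "against" below, the pre-pubertal level comes first. Malat1, a nuclear non-coding RNA, and Actb, cytoplasmic actin, were among the 3 highest at both stages, joined by Fstl1, a secreted glycoprotein, at pre-puberty and by Mt1, a metallothionein, in the adult. Mt1 stood at 1054 CPM before puberty against 10433 CPM in adult cells, a log2 ratio of -3.30. All 25 adult cells had it, at 282 to 34194 CPM with a median of 6758, and the median pre-pubertal cell had 733 CPM.

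**Figure D3:**
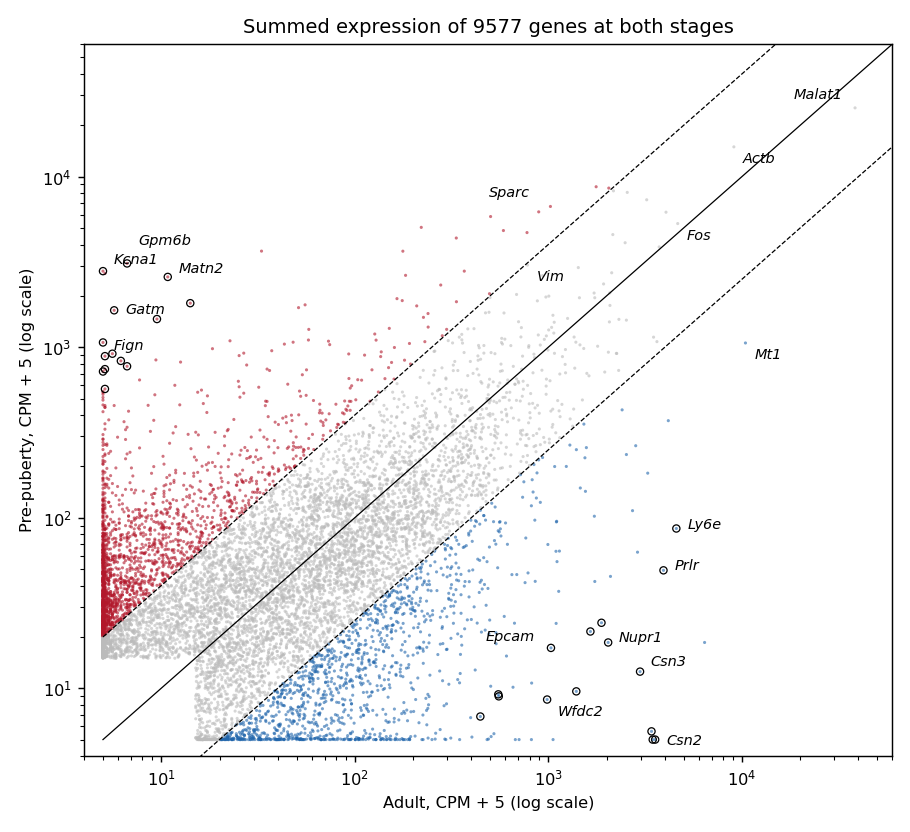
Summed expression of each of 9577 genes in the adult (x axis) and at pre-puberty (y axis), both as CPM + 5 on log scales. The solid line marks equal values and the dashed lines 4-fold, red and blue points lie past 4-fold, and circles mark leading genes of each direction, of which 12 are named. Kcna1 reaches 2788 CPM at pre-puberty with no read in the adult.

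The leading genes at pre-puberty included Kcna1, Gpm6b, Gatm, Matn2, Fign, Adam23, Zeb2, Abca8a, Mal, Tmod2, Chl1, Ttyh2, Sfrp1 and Lrrtm4. Kcna1, a voltage-gated potassium channel of axons and glia (chromosome 6, 126636463 to 126645801 in GRCm38), had 2788 CPM (2769 to 2807) at pre-puberty and no read in any adult cell. Single pre-pubertal cells had 0 to 10738 CPM of it, with a median of 2227, and 91 of 92 thinned cells detected it. The difference was at least 7842-fold against the floor of 3 reads. Every pre-pubertal cell but 1, which was at 0, was above every adult cell. Without its top cell Kcna1 kept a log2 ratio of 9.07. Gpm6b, a membrane glycoprotein of neurons and glia, had 3094 CPM against 1.66 CPM, all of it in 1 adult cell. Gatm, which makes the precursor of creatine, had 1641 CPM (8.69 to 9856 in single cells, median 1239.8) against 0.711 CPM. Matn2, a matrix adaptor protein, had 2578 CPM (177 to 9217, median 2173) against 5.81 CPM. The lowest pre-pubertal cell was above the highest adult cell, at 129 CPM, for Matn2 but not for Gatm. Per length, Gatm stood at 696 CPM per 1000 bases of the deposited gene length (RPKM) at pre-puberty and Kcna1 at 311.

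**Figure D4:**
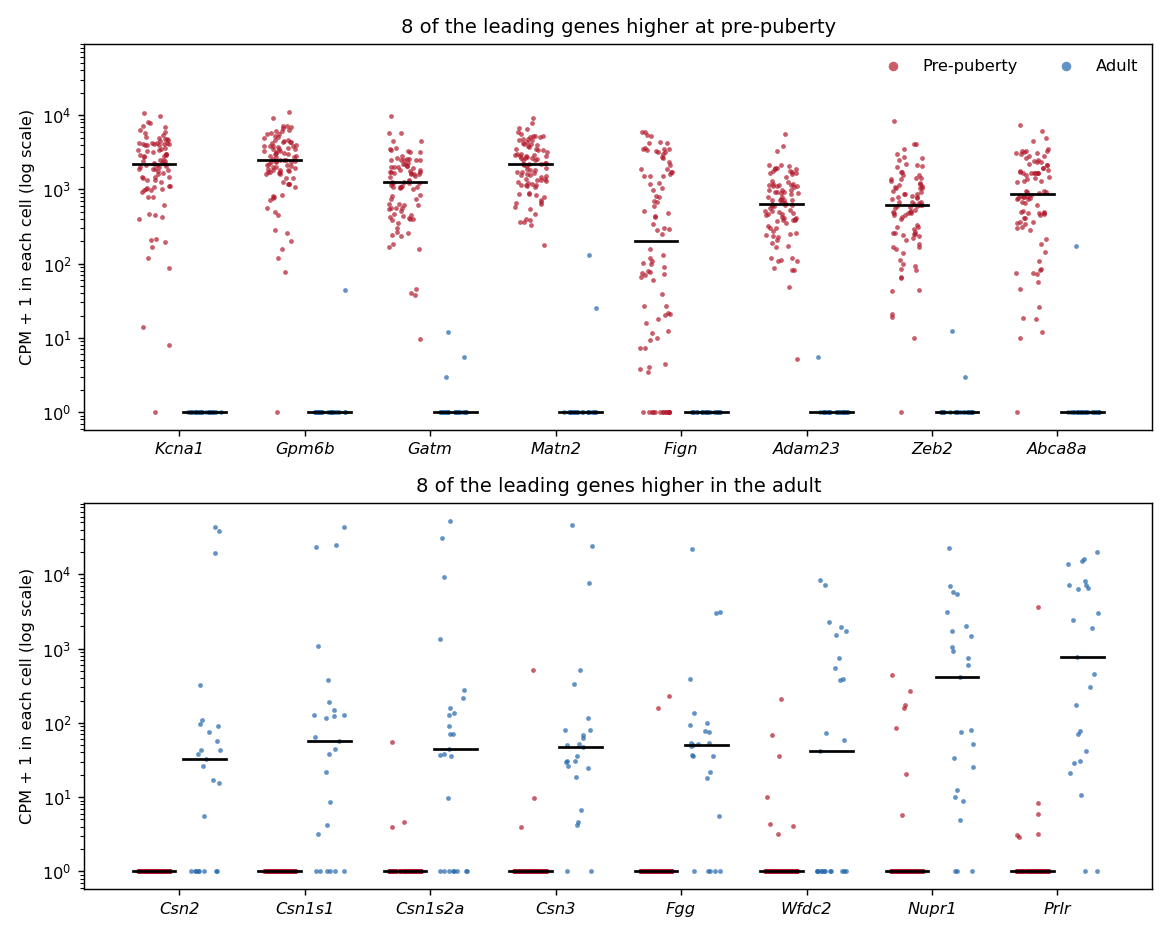
Expression in each of 92 pre-pubertal (red) and 25 adult (blue) cells, as CPM + 1 on a log scale, of 8 leading genes higher at pre-puberty (top) and 8 higher in the adult (bottom), with the median of each stage as a black bar. In the top panel most red points lie above the blue ones, while in the bottom panel the adult cells spread widely and 3 cells carry most of the casein reads.

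The promoter of Gpm6b is shown because it is the first of the leading pre-pubertal genes with an entry in the promoter table, and because SOX10, a factor of the neural crest and glia, was itself measured. It is RefSeq sequence of GRCm38.p6, chrX:166238693-166238992 on the plus strand, from 250 bases before the start site to 50 bases after it. Capitals mark ACAAAG, a core letter pattern of SOX factors, searched on both strands, which stood once, starting 65 bases before the start site.

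Gpm6b: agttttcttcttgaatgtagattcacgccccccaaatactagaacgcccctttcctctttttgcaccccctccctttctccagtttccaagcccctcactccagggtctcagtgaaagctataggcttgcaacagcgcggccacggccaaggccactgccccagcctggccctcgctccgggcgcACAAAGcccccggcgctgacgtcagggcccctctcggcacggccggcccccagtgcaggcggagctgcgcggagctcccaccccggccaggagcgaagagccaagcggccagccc

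The pattern stands in 6147 of the 32851 RefSeq promoters of this length (18.7%), and in 4 of the 16 promoters of leading pre-pubertal genes (25%). The match is a description of letters.

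All tested myelin genes were higher at pre-puberty. Of 15 myelin genes 12 were tested, and 12 were at least 4-fold higher at pre-puberty, against 20.2% of all tested genes, 9 of them also without the top cells, against 14.7%. Their median log2 ratio was 4.49, and none was higher in the adult. Summed over the list, pre-pubertal cells had 12325 CPM and adult cells 320 CPM. In single cells the sum ran from 1186 to 84110 CPM at pre-puberty and from 0 to 1913 CPM in the adult, and 90 of 92 pre-pubertal cells were above every adult cell. Pmp22, a structural protein of peripheral myelin, had 5038 CPM (72.0 to 46956 in single cells, median 3329) against 216 CPM, a log2 ratio of 4.52. In the adult 15 of 25 thinned cells had a read of it. Cnp, an enzyme of myelinating glia, had 1767 against 50.4 CPM, and Mal, a membrane proteolipid, had 739 against 0.119 CPM. Mbp, myelin basic protein, had 1267 against 52.9 CPM, and adult cell 7 held 98.9% of its adult reads. Of the 24 Schwann list genes 23 were at least 4-fold higher at pre-puberty, 19 of them also without the top cells, with a median log2 ratio of 4.76. The exception was Egr2, a regulator of myelination that is also an immediate early gene, with 298 against 306 CPM.

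The glial adhesion and neurotrophin list gave 16 of 20 tested genes at least 4-fold higher at pre-puberty and none higher in the adult, with 14 of the 16 left without the top cells, against 20.2% and 14.7% of all tested genes. Ncam1, a neural cell adhesion molecule, had 888 CPM (2.95 to 5063, median 625) at pre-puberty. Its 20.3 CPM in the adult came to 97.1% from adult cell 63. Cdh19, a cadherin of glia of the neural crest, had 1095 against 124 CPM, and adult cell 44 held every adult read. Scn7a, a sodium channel found in glia, was also present in the adult, with 6213 against 887 CPM and detection in 92 and 21 cells. Gene by gene, the adult level of this group was thus often set by a different single cell. Of 11 tested transcription factors of the neural crest and glia, 6 were at least 4-fold higher at pre-puberty and 5 were between. Zeb2 had 911 against 0.593 CPM and was detected in 91 of 92 and in 1 of 25 cells. Sox6 had 145.2 against 0.119 CPM. Sox10 had 299 CPM (0 to 6277, median 141) against 63.8 CPM, a log2 ratio of 2.15, and adult cell 65 held 76.2% of the adult reads, without which 15.8 CPM remained. Ets1 had 283 against 30.2 CPM. Axon guidance was a mixed list, with 10 genes higher at pre-puberty, 4 higher in the adult and 14 between. Nrp1, a receptor of semaphorins, had 293 against 44.8 CPM. The 206 CPM of Unc5b, a netrin receptor, in the adult came to 99.8% from adult cell 35, and without the top cell of each stage its log2 ratio turned from -3.71 to 1.33.

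**Figure D5:**
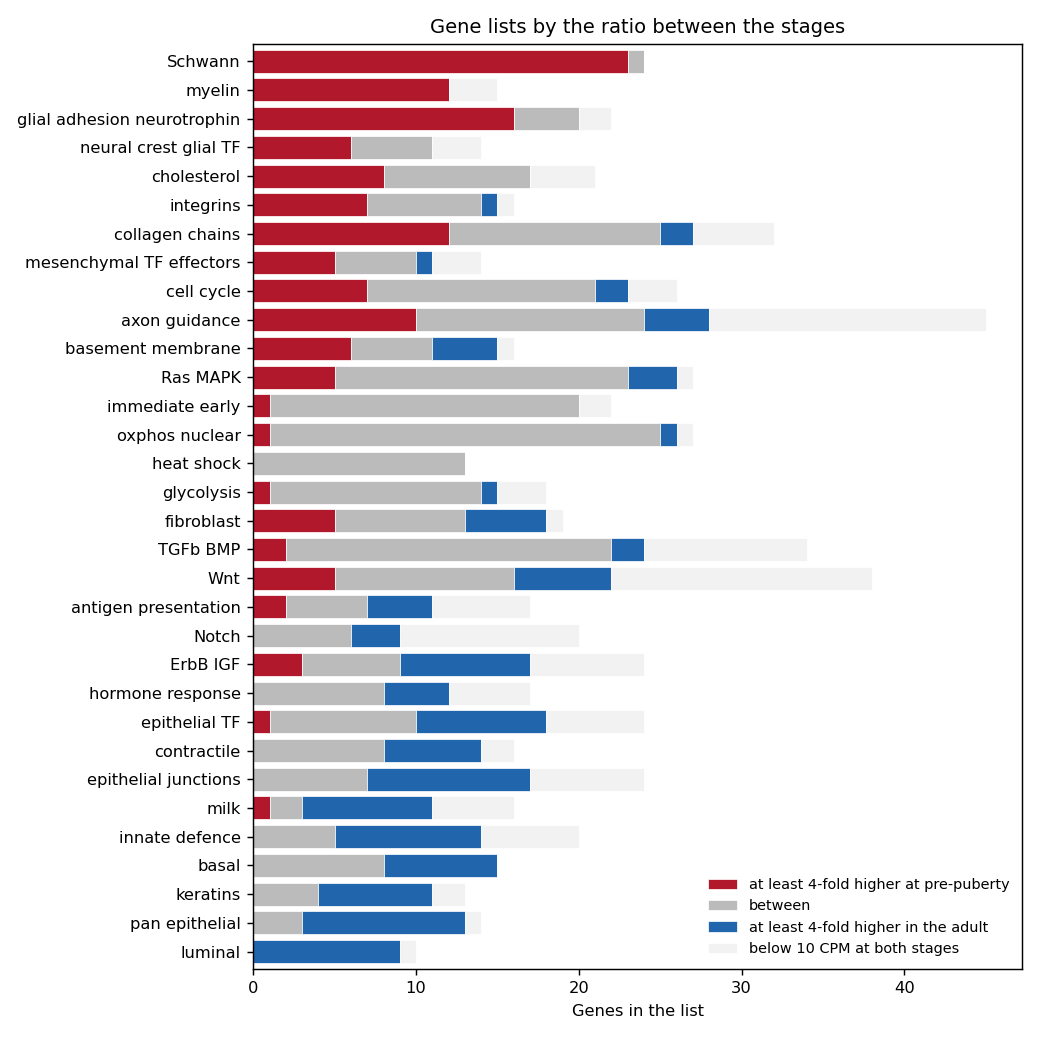
Number of genes of each list (x axis) that were at least 4-fold higher at pre-puberty (red), at least 4-fold higher in the adult (blue), between (grey) or below 10 CPM at both stages (pale), for lists with at least 9 tested genes, sorted by the balance of both directions. The Schwann and myelin lists have no blue part, and the luminal list has no red or grey part.

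Of 27 tested collagen chains 12 were at least 4-fold higher at pre-puberty and 2 in the adult, against 20.2% and 13% of all tested genes, and the median log2 ratio was 1.23. Col3a1, a fibrillar chain, had 4827 CPM (156.4 to 25681, median 4052) against 581 CPM, of which adult cell 36 held 83.4%. Col1a2 had 1065 against 43.0 CPM, Col1a1 571 against 89.7 CPM and Col5a2 975 against 13.4 CPM. The chains of the basement membrane, Col4a1 and Col4a2, were between, with log2 ratios of 0.67 and -0.80. Of 15 tested genes of the basement membrane 6 were higher at pre-puberty and 4 in the adult, and 5 were between, with a median log2 ratio of 1.16. Lama2, a laminin chain of muscle and nerve, had 513 against 12.3 CPM. Nid2, a linker of laminin and collagen, had 918 against 21.7 CPM, all of the latter in adult cell 5. Sparc, a secreted matrix protein, had 6683 CPM (1389 to 16185, median 6300.1) against 1020.4 CPM (0 to 7223, median 177), a log2 ratio of 2.71. Of 15 tested integrins 7 were higher at pre-puberty and 1 in the adult. Itga4 had 110.5 against 0.119 CPM, Itgb3 177 against 8.18 CPM, Itga1 118 against 5.21 CPM and Itgb4 114 against 8.65 CPM.

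Mesenchymal factors and effectors gave 5 of 11 tested genes at least 4-fold higher at pre-puberty and 1 in the adult. Over all tested genes the shares were 20.2% and 13%, which are also the measure for the fibroblast markers below. Vim, an intermediate filament of mesenchymal and glial cells, had 3027 CPM (414 to 9169.9, median 2639) against 775 CPM (0 to 8124, median 2.05). Its log2 ratio of 1.96 lay just under 4-fold, and without the top cells, of which adult cell 51 held 45.7% of the adult reads, it was 2.73. S100a4 had 166 against 0.237 CPM, Mmp2, a matrix protease, 358 against 82.2 CPM and Zeb1 61.4 against 7.82 CPM. Fibroblast markers as a whole went both ways, with 5 higher at pre-puberty, 5 in the adult and 8 between, and a median log2 ratio of -1.12. The 5 higher at pre-puberty were Mmp2 and the chains Col1a1, Col1a2, Col3a1 and Col5a1. Dcn, a proteoglycan that marks fibroblasts, had 262 CPM at pre-puberty, detected in 11 of 92 thinned cells, and 1288 CPM in the adult, detected in 9 of 25. At least 10 of 19 fibroblast markers were found in pre-pubertal cells 58 and 118 and in adult cells 1, 36 and 45.

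Epithelial genes formed the reverse group. All 9 tested luminal markers were at least 4-fold higher in the adult, against 13% of all tested genes, and all 9 also without the top cells, against 4.41%, and their median log2 ratio was -4.08. Of 13 pan-epithelial markers 10 were higher in the adult, of 11 keratins 7, and of 17 genes of epithelial junctions 10, and no gene of these lists was higher at pre-puberty. Epcam, an epithelial adhesion molecule (chromosome 17, 87635979 to 87651127), had 1027 CPM in the adult (0 to 4549 in single cells, median 602) and 12.2 CPM at pre-puberty (0 to 244, median 0), a log2 ratio of -5.90. It was detected in 23 of 25 adult and in 13 of 92 pre-pubertal thinned cells. Krt8 and Krt18, the paired keratins of luminal cells, had 780.5 and 1724 CPM in the adult and 42.5 and 97.0 CPM at pre-puberty. Both have pseudogenes, so their counts are uncertain. Krt19 had 15.8 against 488 CPM. Krt14 had 820.4 CPM in the adult (0 to 6275, median 27.2) and 162 CPM at pre-puberty, a log2 ratio of -2.31. Cldn3, a tight junction protein, had 1.45 against 139.8 CPM, and Dsg2, a desmosomal cadherin, 38.1 against 331 CPM.

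Of 18 tested epithelial transcription factors 8 were at least 4-fold higher in the adult, 1 at pre-puberty and 9 between. Over all tested genes 13% were higher in the adult and 20.2% at pre-puberty. Gata3, which maintains luminal cells, had 36.6 against 753 CPM, and Sox9 71.0 against 760 CPM. Ehf had 145.2 CPM in the adult, where 5 of 25 thinned cells detected it, and 2 reads at pre-puberty, which gave an adult excess with a counting interval of 581 to 17398. The gene higher at pre-puberty was Ovol1, with 35.1 CPM and no adult read, and it was singled out after its values were seen.

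Several receptors and targets of hormones stood far higher in the adult. Prlr, the prolactin receptor (chromosome 15, 10177238 to 10349190), had 3931 CPM in the adult (0 to 20229.6, median 771), detected in 23 of 25 thinned cells. At pre-puberty it had 44.1 CPM and was detected in 5 of 92 cells, a log2 ratio of -6.32. Pgr, the progesterone receptor, had 124 CPM in 11 adult cells and no pre-pubertal read, a difference of at least 1197-fold. Areg, the ligand of the EGF receptor that acts downstream of estrogen in the gland, had 813 CPM in 12 adult cells and no pre-pubertal read, at least 7856-fold. Cited1, a co-activator of the estrogen receptor, had 11.5 against 221 CPM. In all, 4 of 12 tested hormone response genes were higher in the adult, 0 at pre-puberty and 8 between. The mature luminal list gave 7 of 8 higher in the adult, all of which remained without the top cells. Over all tested genes 13% were higher in the adult and 20.2% at pre-puberty, and 4.41% and 14.7% also without the top cells.

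The caseins led the genes higher in the adult, and most of their reads were in a few adult cells. Of 11 tested milk genes 8 were at least 4-fold higher in the adult, against 13% of all tested genes, and the summed level was 205 against 15665 CPM. The 1 gene of the list higher at pre-puberty, also without the top cells, was Plin2, which coats lipid droplets, with 130.2 against 13.9 CPM. Csn2, the beta casein (chromosome 5, 87692619 to 87699429), had 3560.2 CPM (3520.1 to 3601) in the adult and no pre-pubertal read, at least 34411-fold. Csn1s1 had 3458 CPM and likewise no pre-pubertal read, at least 33421-fold. Csn1s2a had 0.586 against 3408 CPM and Csn3, the kappa casein, 7.52 against 2974 CPM. Each of Csn1s1, Csn1s2a and Csn2 was detected in 17 of 25 thinned adult cells (68%, 46.5 to 85.1), and Csn3 in 23 (92%, 74.0 to 99.0). At pre-puberty the counts of cells were 0, 2, 0 and 3 of 92, and 0 of 92 allows a share of up to 3.93%. Between adult cells the levels differed by orders of magnitude. Csn2 ran from 0 to 42813 CPM with a median of 31.5, and Csn1s1 from 0 to 43880.3 CPM with a median of 55.4. Adult cells 10, 21 and 65 had 176002, 111509 and 115541 CPM on the milk list, and no other adult cell passed 4735 CPM. These 3 cells held 98.9% of the adult Csn2 reads, 97.2% of Csn1s1, 97.1% of Csn1s2a and 98.0% of Csn3. Without them, a choice made after their values were seen, Csn2 stood at 42.5 CPM, Csn1s1 at 109, Csn1s2a at 111 and Csn3 at 66.1 CPM. The log2 ratios were then -3.25, -4.51, -4.38 and -2.51, still past 4-fold. Per length, the 4 caseins stood at 1862 to 3705 RPKM in the adult with all cells.

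The casein genes lie within one stretch of chromosome 5, and their promoters are shown because the genes shared this pattern and because Prlr signals through STAT5, a factor that binds the letters TTCNNNGAA. The sequences are from RefSeq, GRCm38.p6, 250 bases before to 50 bases after the start site. Csn1s1 is at chr5:87665958-87666257 on the plus strand, Csn2 at chr5:87699376-87699675 on the minus strand and Csn1s2a at chr5:87774200-87774499 on the plus strand, and Csn3 had no entry. Capitals mark TTCNNNGAA, which reads alike on both strands.

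Csn1s1: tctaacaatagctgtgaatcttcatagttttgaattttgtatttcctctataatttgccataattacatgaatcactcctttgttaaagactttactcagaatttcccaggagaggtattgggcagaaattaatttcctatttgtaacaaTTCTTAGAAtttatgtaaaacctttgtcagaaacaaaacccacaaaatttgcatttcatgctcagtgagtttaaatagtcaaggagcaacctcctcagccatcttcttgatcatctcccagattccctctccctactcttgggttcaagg

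Csn2: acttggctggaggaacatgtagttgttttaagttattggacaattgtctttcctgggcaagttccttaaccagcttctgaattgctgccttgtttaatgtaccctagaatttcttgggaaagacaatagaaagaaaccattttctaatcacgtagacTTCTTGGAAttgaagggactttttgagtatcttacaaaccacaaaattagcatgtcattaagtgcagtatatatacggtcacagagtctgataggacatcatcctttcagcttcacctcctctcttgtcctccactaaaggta

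Csn1s2a: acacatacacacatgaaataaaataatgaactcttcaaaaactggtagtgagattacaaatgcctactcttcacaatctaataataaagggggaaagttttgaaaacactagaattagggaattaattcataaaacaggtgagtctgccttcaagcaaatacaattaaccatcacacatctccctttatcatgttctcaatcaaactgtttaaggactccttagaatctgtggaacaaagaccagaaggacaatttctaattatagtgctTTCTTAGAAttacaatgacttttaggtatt

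Each promoter held the pattern once, starting 100 bases before the start site in Csn1s1, 93 bases before it in Csn2 and at base 21 from it in Csn1s2a. It stands in 2726 of all 32851 promoters (8.30%). Counted in the same way it stands in 5 of the 12 promoters of leading adult genes and in 2 of the 16 promoters of leading pre-pubertal genes. The 5 include the casein promoters printed above. The matches are a description of letters, and binding was not tested. Stat5a itself was between, with 76.5 against 91.4 CPM.

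The other leading adult genes were Fgg, Wfdc2, Nupr1, Prlr, Ly6a, Lcn2, Fxyd2, Mtmr7, Iigp1, Epcam and Ly6e. Fgg, the gamma chain of fibrinogen, had 4.59 against 1390.2 CPM, and adult cell 50 held 81.3% of its adult reads. Wfdc2, a secreted protease inhibitor-like protein, had 3.59 against 981 CPM and was detected in 13 of 25 adult cells, and none of its adult reads were in the 3 cells rich in caseins. Nupr1, a stress-induced nuclear protein, had 2033 CPM in the adult (0 to 22649.5, median 414) and 13.6 CPM at pre-puberty. Ly6e, a surface protein anchored by lipid, was detected in the most adult cells of these genes, with 4582 CPM (0 to 22163, median 3902) in 24 of 25 adult cells and 81.5 CPM in 18 of 92 pre-pubertal cells. Lcn2, a defence protein that binds iron carriers, had 16.5 against 1645 CPM and was detected in 8 of 92 and 20 of 25 cells.

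Contractile genes, which mark the basal layer, gave 6 of 14 tested genes higher in the adult and none at pre-puberty, against 13% and 20.2% of all tested genes, and 5 of the 6 were left without the top cells. Acta2 had 4164 CPM in the adult (0 to 19557, median 34.3) and 366 CPM at pre-puberty (0 to 7389.9, median 0), a log2 ratio of -3.49. Tagln, a smooth muscle protein, had 229.7 against 2527 CPM, Myh11, smooth muscle myosin, 90.3 against 1099.7 CPM and Tpm2 89.5 against 1096 CPM. The contractile list reached 55113 CPM in the highest adult cell and 22411 CPM in the highest pre-pubertal cell, and only 6 of 25 adult cells were above every pre-pubertal cell. Of the 15 tested basal markers 7 were higher in the adult and 8 between. The median log2 ratio of the basal list was -1.98. The 13 pre-pubertal cells with 8 or more basal markers had 1135 CPM of Krt14 and 2153 CPM of Acta2.

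Of 14 tested innate defence genes 9 were at least 4-fold higher in the adult and none at pre-puberty, against 13% and 20.2% of all tested genes, and 6 of the 9 were left without the top cells. Of 11 tested antigen presentation genes 4 were higher in the adult, 2 of them also without the top cells, and 2 at pre-puberty, which is near the share of all genes. Slpi, a secreted protease inhibitor, had 105 against 2719 CPM, C3 18.0 against 279 CPM and Ccl2, a chemokine, 144 against 1458 CPM. Of Ccl2 adult cell 51 held 89.6%, and without the top cells the log2 ratio was -0.73. The same cell held all adult reads of H2-Aa and 99.9% of those of Cd74, which present antigen to T cells, and all or 99.9% of those of the immune markers Lyz2, Tyrobp and Fcer1g. Without it these 5 genes were at 0 to 0.124 CPM in the adult and no longer past 4-fold. Adult cell 51 detected 5 immune and 5 pan-epithelial markers. Psmb8, of the immunoproteasome, had 68.7 against 331 CPM, a log2 ratio of -2.19 and -2.22 without the top cells. The 2 higher at pre-puberty were Tap1, a peptide transporter, and Psmb10, of the immunoproteasome, with 73.0 against 2.37 and 61.9 against 4.27 CPM.

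Signalling lists are to be read against the 20.2% and 13% of all tested genes that were higher at pre-puberty and in the adult. Of 22 tested Wnt genes 5 were higher at pre-puberty and 6 in the adult. These counts turned to 6 and 3 without the top cells, 5 and 2 with 20 CPM added, 5 and 4 with a filter of 50 CPM, 5 and 3 at 100000 reads or more and 7 and 6 in cells outside the window. Those higher at pre-puberty with all kept cells included Sfrp1, a secreted Wnt inhibitor, with 768 against 1.66 CPM, Lgr4, a receptor of R-spondins, with 894 against 107 CPM, and the receptors Fzd3 and Fzd1 with 312 against 10.1 and 224 against 5.21 CPM. Lgr5, a Wnt target found in stem cells, had 71.1 CPM in 23 of 92 pre-pubertal cells (25%, 16.6 to 35.1) and 41.0 CPM in 2 of 25 adult cells (8%, 0.984 to 26.0). Adult cell 37 held 97.7% of its adult reads, and the log2 ratio was 0.73 with it and 3.24 without the top cells. Of 9 tested Notch genes none was higher at pre-puberty, 3 were higher in the adult and none of those 3 remained without the top cells, while in cells outside the window 4 were higher at pre-puberty and 1 in the adult. Hes1, a Notch effector, had 406 against 227 CPM and Jag1, a ligand, 556 against 331 CPM. Of 24 tested genes of TGF-beta and BMP signalling 20 were between. Tgfbr3, the co-receptor betaglycan, was among the other 4, with 5832 CPM (118 to 21284, median 4739) against 498 CPM. Of 17 tested ErbB and IGF genes 3 were higher at pre-puberty and 8 in the adult, of which 2 and 3 were left without the top cells, and in cells outside the window the counts were 3 and 1. Igfbp5, a binding protein of IGF, had 259 against 2823 CPM. Nrg1, a ligand of ErbB3 and ErbB4, had 27.0 against 191 CPM, of which adult cell 63 held 96.0%, and its log2 ratio turned from -2.62 to 0.55 without the top cells.

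Ras and MAP kinase genes had a median log2 ratio of 0.36 over 26 tested genes, near that of all genes, with 5 higher at pre-puberty and 3 in the adult. Nras, a Ras GTPase, had 2634 CPM (7.44 to 7123, median 2245) against 178 CPM (0 to 2247, median 74.1), a log2 ratio of 3.85. Spry2, a feedback inhibitor of the pathway, had 1921 against 160.2 CPM and was detected in 91 of 92 and 25 of 25 cells. Gsk3b, a kinase of the Wnt pathway, had 1491 against 221 CPM, a log2 ratio of 2.72, and was likewise detected in 91 and in 25 cells. The log2 ratio of Nf1, an inhibitor of Ras, lay under 4-fold at 1.49. Without the top cells it was 2.65, and a single adult cell held 61.6% of the adult reads. Bach1, a transcription repressor, had 301 against 10.5 CPM in 89 and 5 cells, and Ldb2, a partner of LIM factors, had 109 against 1.66 CPM in 40 and 1 cells.

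Of 17 tested genes of cholesterol synthesis and its control 8 were higher at pre-puberty and none in the adult, against 20.2% and 13% of all tested genes, and the median log2 ratio was 1.61. Msmo1, an enzyme of the pathway, had 323 against 1.54 CPM, Sqle 158.2 against 15.6 CPM and Insig1, a sterol sensor, 97.6 against 1.78 CPM. Of 23 tested cell cycle genes 7 were higher at pre-puberty and 2 in the adult, of which 4 and 1 were left without the top cells. In cells outside the window the counts were 5 and 6, and the log2 ratios of Mki67 and Top2a turned to -0.29 and -2.10. Mki67 had 133 against 9.84 CPM and Top2a 337 against 6.87 CPM, and they were detected in 28 and 26 of 92 pre-pubertal cells and in 8 of 25 adult cells each, and pre-pubertal cells held up to 3104 and 9569 CPM. The respiratory chain had 24 of 26 tested nuclear genes between, with a median log2 ratio of -0.82, and glycolysis 13 of 15 with a median of -0.89. Over all tested genes 6399 of 9577 were between. Ndufa4, of the respiratory chain, had 178 against 869 CPM, a log2 ratio of -2.25.

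None of 13 tested heat shock genes was past 4-fold either way, and Hsp90ab1 had 2077 and 2073 CPM. Over all tested genes 6399 of 9577 were between, so most genes of any list are found there. Of 20 tested immediate early genes 19 were between, with a median log2 ratio of 0.20. Fos had 5304 CPM (40.8 to 17623, median 4279) and 4658 CPM (148.1 to 11286, median 4457), a log2 ratio of 0.19, and was detected in every cell of both stages. Egr1 had 4571 and 2149 CPM and Klf6 2925 and 1424 CPM, with log2 ratios of 1.09 and 1.04. The exception was Socs3, an inhibitor of cytokine signals, with 54.4 against 1.07 CPM.

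The neuron list had no gene at 10 CPM, with 8.59 CPM in sum at pre-puberty and no adult read. Of 6 melanocyte markers only Dct and Mitf were tested, with 27.9 and 33.8 CPM at pre-puberty, and neither was past 4-fold without the top cells. The 10 endothelial markers, of which 4 were tested, summed to 21.6 against 337 CPM. Of the 4, 3 were higher in the adult, 1 of them also without the top cells, and in cells outside the window 2 were higher at pre-puberty and none in the adult. Adult cell 44 held 99.3% of the adult Emcn reads. Fabp4, a lipid carrier of adipocytes and endothelial cells, had 2885 CPM in 10 of 25 adult cells and 57.8 CPM in 23 of 92 pre-pubertal cells, while Adipoq, a defining adipocyte hormone, had no adult read. In cells outside the window the log2 ratio of Fabp4 turned from -5.52 to 4.11. Of 6 tested pericyte markers 2 were higher at pre-puberty, 3 in the adult and 1 was between. Mcam and Cspg4 had 402 against 68.7 and 36.5 against 0.119 CPM, while Abcc9, Kcnj8 and Notch3 had 7.41 against 64.6, 5.59 against 55.8 and 3.07 against 35.2 CPM. Without the top cells 2 and 1 of these calls were left, and in cells outside the window the counts were 2 and 0. The endothelial and pericyte counts are to be read against 20.2% of all tested genes at pre-puberty and 13% in the adult.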

How the data were processed

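The deposited files hold, for each cell, whole-number read counts per gene with no normalization, which the authors made by aligning reads to mm10 with Subread and counting them with featureCounts over built-in RefSeq genes. The submitters' processing notes name Subread 1.4.6. Whether strand or reads with several matches were used is not given in the sources used here, and the libraries carry no molecular identifiers, so intervals and floors cover counting error only. Gene IDs were matched to RefSeq symbols of GRCm38.p6 for 25275 of 27179 genes. Mitochondrial genes (15) and genes whose symbols begin with Rps or Rpl (123, with 36 pseudogenes) were removed, which left 25137. The table of all cells held the same values as the files per cell and was not used.

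Reads of a stage were summed over cells and scaled to a total of 1000000 (CPM), with exact Poisson 95% intervals. Shares of cells have exact Clopper-Pearson intervals and were taken after thinning each cell to 200000 reads (seed 1). Log2 ratios had 5 CPM added, and genes at 10 CPM or more at either stage were compared, with 4-fold as the threshold. Folds against a stage with no read used a floor of 3 reads over the stage. RPKM used the deposited gene lengths. The wells were inspected under the microscope by the authors, and no doublet caller was run. Some items are not reported here. Otherwise named were the 15 leading genes each way, up to 4 genes of each list (by CPM, those past 4-fold first), genes the study discusses and the 3 highest genes of each stage. Leading genes had 100 CPM and detection in 50% of thinned cells, and were past 4-fold without the top cell of each stage. Egr2, Oxtr, Krt5, Krt17, Trp63, Stat5a, Ovol1, Col4a1, Col4a2, Col5a1, Tap1, Psmb10 and Plin2 were named after their values were seen. The members and gene lists were chosen with earlier results of these data known. The steps were tested on simulated data. Python 3.11.15, NumPy 2.4.6, pandas 2.3.3, SciPy 1.17.1 and matplotlib 3.10.9 were used. Alternatives changed the added constant, the filter, the scaling, the weighting of cells, the window and the cells kept.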

Additional observations from a re-analysis of the deposited data

Results flagged for a closer look

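Reads on the Schwann and milk lists were also found in the cells outside the window, which entered no main comparison. Levels are sums over cells, and most reads outside the window came from 9 pre-pubertal and 12 adult cells above 600000 reads. The Schwann list stood at 25599.9 CPM (25510 to 25690) in the 52 pre-pubertal cells outside the window and at 691 CPM (675 to 707) in the 41 adult cells outside it. Without the cell with the most reads of the list these levels were 22584 and 535 CPM. The milk list stood at 13145.8 CPM (13077 to 13215) in the same 41 adult cells and at 403 CPM (392 to 415) in the 52 pre-pubertal cells, or at 7830 and 265 CPM without the top cell. Both were flagged as a signal in data that the comparison did not use.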

How the results depend on the processing

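No paired analysis was possible because the values come from no test and the numbers in the labels only name cells. Of 109 genes named by the rule and past 4-fold, 77 were past 4-fold the same way under every one of 16 alternatives in the constant, the scaling and the cells, and 11 changed sign under at least 1 alternative. The leading genes among the 109 were chosen partly by the alternative without the top cells, so the count of 77 was partly set in advance. Over all calls, that alternative kept 72.9% of the genes higher at pre-puberty and 34.0% of those higher in the adult. With 20 CPM added, 614 genes were higher at pre-puberty and 570 in adult cells. With a filter of 50 CPM 1013 were higher at pre-puberty, and without the top cell of each gene 436 were higher in the adult. Counting genes with 5 reads, the median pre-pubertal cell detected 2129.5 genes and the median adult cell 1550. Without the top cells the log2 ratios of Unc5b and Nrg1 turned to 1.33 and 0.55, beside a median of 0.88 over all tested genes. Nrg1 also turned with the narrower window of reads (1.58) and the higher minimum of detected genes (1.29), and Socs3 with 100000 reads or more (-0.34). In cells outside the window alone, an alternative chosen after seeing the data, with 24 pre-pubertal and 18 adult cells, the reversed log2 ratios were those of Unc5b at 2.39, Dcn at 0.17, Top2a at -2.10, Socs3 at -3.06, Fabp4 at 4.11, Emcn at 1.41, Mki67 at -0.29, Notch3 at 1.14, Kcnj8 at 1.04 and Abcc9 at 0.55. Kcnj8 also turned, to 0.047, without pre-pubertal cells with 5 or more pan-epithelial markers and adult cells with more Schwann list genes than pan-epithelial markers, likewise chosen after seeing the data. In the cells outside the window, 704 of the genes higher at pre-puberty (36.4%) were called the same way. So were 343 of those higher in the adult (27.6%), and 264 genes were called the other way. The cause was not tested. At pre-puberty these cells included the 9 above 600000 reads, all numbered 1 to 37. By contrast, 89 of the 92 kept pre-pubertal cells were numbered 38 and above. With only those 89 cells against the kept adult cells, 1926 genes were higher at pre-puberty and 1247 in the adult. Scaling by the median of ratios or by a trimmed mean used factors of -0.17 and 0.16 on the log2 scale, and the share of calls higher at pre-puberty was 55.3% to 65.9% under the scalings against 60.9%. Depth limits statements on low genes, since 3 reads equal 0.103 CPM over the pre-pubertal and 0.356 CPM over the adult cells.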
